A study of Medicago truncatula with 4 samples.

Results

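Protease inhibitors and proteases were described in calli of *M. truncatula* R108 with *MtWOX9-1* overexpression and in wildtype calli. Members were taken by keyword from the deposited gene descriptions, using the terms Kunitz, Bowman, trypsin inhibitor, protease inhibitor, subtilisin, subtilase, cysteine protease and cystatin. This gave 103 of the 52709 genes in the count table, and 101 of them were inhibitors: 42 Kunitz trypsin inhibitors, 36 phytocystatins, 13 Bowman-Birk inhibitors and 10 subtilisin inhibitors. Only 2 members stood on the protease side, the papain-family cysteine protease *MtCP77* and *MtSUBPEP*, described as a plant elicitor peptide embedded in a subtilisin. Descriptions were given for only 3784 genes, so proteases without a deposited description were not reached by the keywords. Proteases described in other words, such as *MtCP2* (cys protease 2), were not reached either and are given apart below.

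Plant protease inhibitors are small proteins that occupy the active site of a protease and block it. Kunitz and Bowman-Birk inhibitors act on serine proteases such as trypsin and accumulate in legume seeds, whereas phytocystatins act on papain-like cysteine proteases. Such inhibitors are known for protecting storage proteins, for restraining endogenous proteolysis in seeds and senescing tissue, and for defence against herbivores.

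The data were RNA-seq libraries, 2 from *MtWOX9-1*-overexpressing and 2 from wildtype calli, all of the R108 genotype and all grown from cut leaves of soil-grown plants. The auxin 2,4-D (18 μM) and the cytokinin BAP (2.22 μM) were present for the first 30 days and absent for the last 5, and RNA was taken on day 35 of culture. Overexpressing plants carried the coding sequence of *MtWOX9-1* inserted with the pMDC32 plasmid, a vector known for constitutive expression from a cauliflower mosaic virus promoter, and wildtype plants are labelled by the R108 genotype alone. The labels call the samples biological replicates without saying whether the calli of a group came from separate plants or transgenic lines, and p-values measure only the spread between these samples. *MtWOX9-1*, encoding a WUSCHEL-related homeobox transcription factor linked to somatic embryogenesis, had 7692 and 7634 read counts in overexpressing calli, against 2 and 18 in wildtype calli.

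The libraries held 6666866 and 6399209 counts in overexpressing calli and 6065277 and 5241334 counts in wildtype calli. A count of 0 therefore allowed a level of up to 0.450 and 0.469 CPM (counts scaled to a common library total) in the overexpressing libraries, and up to 0.495 and 0.572 in the wildtype libraries, which covers counting error only. Of 24630 genes with at least 10 counts over all libraries, 20.2% were higher and 18.9% lower by the quasi-likelihood test of edgeR, at a Benjamini-Hochberg adjusted p under 0.05. Among the 1734 tested genes with a description, 29.1% were higher and 26.9% lower. The median log2 fold change of all tested genes was 0.04, and it was 0.18 when only library size was used for scaling. Genes for embryo regulators were looked up by symbol, from a list chosen with earlier results known. *MtFUS3*, *MtLEC1*, *MtL1L*, *MtBBM* and *MtWOX2* were not found under these symbols, although *MtPLT4* is also described as BABYBOOM. The 6 genes found (*MtABI3* and the PLETHORA genes *MtPLT1* to *MtPLT5*) were all higher in overexpressing calli. Their summed normalized count (counts scaled to a common effective library size) was 4770 and 3982 in overexpressing calli, against 72.1 and 391 in wildtype calli. The single photosynthesis marker, *MtRCA*, had 328 and 228 normalized counts in overexpressing calli and 266 and 383 in wildtype calli. Of 4 seed maturation genes 3 were higher and 1 lower, with sums of 746 and 2044 in overexpressing calli and 298 and 304 in wildtype calli. The part of embryo or seed gene activity in the inhibitor values was not tested, and in these bulk samples more cells of a type and more RNA per cell cannot be told apart.

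Many inhibitor genes gave no reads in either kind of callus. Of the 103 members, 52, all inhibitors, had 0 counts in all 4 libraries, 17 had between 1 and 8 counts in total, and 34 passed the minimum of 10 counts and were tested. Of the 32 tested inhibitors 9 were higher and 5 lower in overexpressing calli, and 18 were not called. Beside this, 20.2% were higher and 18.9% lower among all tested genes. Among the tested genes with a description, from which the members were taken, the shares were 29.1% higher and 26.9% lower. The calls ran in different directions among the classes. Of the 14 tested Kunitz inhibitors 7 were higher and 0 lower, of the 9 tested phytocystatins 2 were higher and 3 lower, of the 6 tested subtilisin inhibitors 0 were higher and 2 lower, and none of the 3 tested Bowman-Birk inhibitors was called. At an unadjusted p under 0.05, edgeR still gave 0 Kunitz inhibitors lower and 0 subtilisin inhibitors higher, and 1 Bowman-Birk inhibitor higher. DESeq2 called 5 Kunitz inhibitors higher and 0 lower, 0 subtilisin inhibitors in either direction and 0 Bowman-Birk inhibitors. The median log2 fold change was 2.56 for the tested Kunitz inhibitors, 3.10 for the Bowman-Birk inhibitors, -0.09 for the phytocystatins and -1.41 for the subtilisin inhibitors. The difference between classes was not tested. A gene with few counts that passed the minimum only through the group where it was high had to differ. Among the called members this holds for *MtKunitz10*, *MtKunitz12*, *MtKunitz17* and *MtKunitz39*, through the overexpressing libraries, and for *MtSubIn8*, through the wildtype libraries. *MtBBPI5* and *MtKunitz45*, which were not called, also passed the minimum only through the overexpressing libraries. The Bowman-Birk median is the value of *MtBBPI5* itself. The Kunitz median lies between the values of *MtKunitz18* (2.71) and *MtKunitz45* (2.40). The counts of calls by class and these medians are therefore descriptions.

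Summed over all members of a class, the Kunitz inhibitors had 6112 and 6601 normalized counts in overexpressing calli, against 1886 and 2826 in wildtype calli. The groups did not overlap, and the ratio of the means was 2.70. The phytocystatin sum went the other way, with 2954 and 2606 in overexpressing calli and 4131 and 4317 in wildtype calli, a ratio of 0.658. The largest falls were those of *MtPhyCys5* (mean 482 in overexpressing and 1424 in wildtype calli) and *MtPhyCys14* (51.5 and 783). Other phytocystatins rose, among them *MtPhyCys40* (1248 and 795), so the sum does not describe the whole class. The same ratio was 0.908 over all genes and 0.768 over genes with a description. Subtilisin inhibitors summed to 387 and 444 in overexpressing calli, between the 268 and 1042 of the wildtype libraries. Bowman-Birk inhibitors summed to 66.9 and 178 in overexpressing calli against 12.9 and 39.7 in wildtype calli. All inhibitors together made up 0.162% and 0.170% of the counts of the overexpressing libraries and 0.0965% and 0.130% of those of the wildtype libraries.

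**Figure D1:**
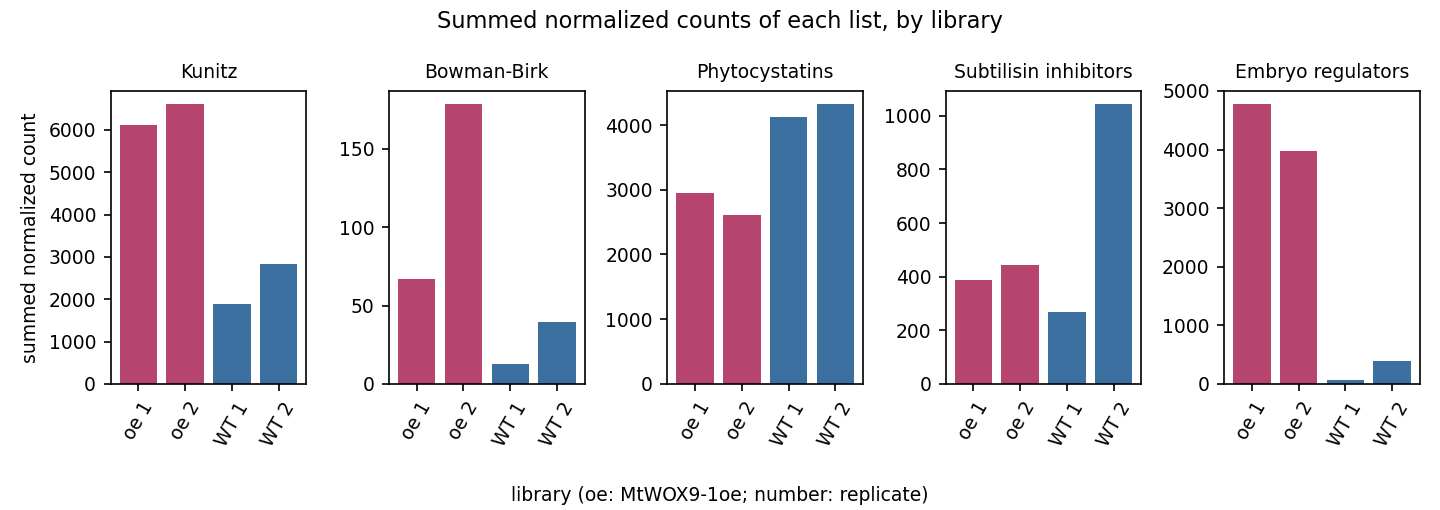
Summed normalized counts (y axis, each panel with its own scale from 0) of 4 inhibitor classes and of 6 embryo regulator genes in each library (x axis, overexpressing libraries left and red, wildtype libraries right and blue; 1 bar is 1 library). Kunitz sums lie at 6112 and 6601 in overexpressing calli and at 1886 and 2826 in wildtype calli, while phytocystatin sums lie lower in both overexpressing libraries.

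Kunitz inhibitors were 7 of the 9 inhibitors that rose. The one with the most counts in overexpressing calli, *MtKunitz40*, had 1878 and 2082 counts in overexpressing calli, against 0 and 48 counts in wildtype calli. Both overexpressing libraries were far above both wildtype libraries, and the wildtype replicates differed strongly from each other. Its normalized count averaged 1769 ± 163 in overexpressing calli and 28.9 ± 40.8 in wildtype calli (SD, n = 2 each), with log2 fold change 5.98 (SE 0.99, adjusted p = 0.011). The size rests on the wildtype library used: leaving out wildtype replicate 1 gave 4.93, and leaving out replicate 2 gave 13.87, where no wildtype count remained and the value depends on the prior count. DESeq2 gave an adjusted p of 0.096, the highest of all alternatives, which ranged down to 0.00135.

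*MtKunitz9*, which the deposited description also names a proteinase inhibitor, had 1081 and 1060 counts in overexpressing calli and 11 and 59 counts in wildtype calli. The overexpressing libraries were nearly equal and the wildtype libraries were low and unequal. Normalized means were 956 ± 5.24 in overexpressing and 41.4 ± 41.8 in wildtype calli (SD, n = 2 each), with a log2 fold change of 4.56 (SE 0.63, adjusted p = 0.0071). Leaving out wildtype replicate 1 gave 3.75 and leaving out replicate 2 gave 6.32, and the gene was called under every alternative. *MtKunitz18* had 856 and 1124 counts in overexpressing calli and 66 and 167 counts in wildtype calli, again without overlap. Its log2 fold change was 2.71 (SE 0.48, adjusted p = 0.013). It lay at 2.14 with wildtype replicate 1 left out and at 3.64 with replicate 2 left out.

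Another 4 Kunitz genes rose at low counts, where the precision is limited by counting. The exact intervals given for them pool the reads of each group, so they cover counting error only and not the spread between libraries. *MtKunitz39* had 27 and 35 counts in overexpressing calli and 0 and 1 in wildtype calli, a ratio of depth-scaled counts of 48.7 with an exact 95% interval of 8.42 to 1954 (log2 fold change 5.32, SE 0.74, adjusted p = 0.0073). *MtKunitz10* had 29 and 35 counts in overexpressing calli against 1 and 2 in wildtype calli, a ratio of 16.8 (5.48 to 83.4; log2 fold change 3.97, SE 0.49, adjusted p = 0.0057). Both were called under every alternative, although wildtype replicate 2 alone held the single count of *MtKunitz39*. *MtKunitz12* had 13 and 12 counts in overexpressing calli and 0 and 1 in wildtype calli, a ratio of 19.6 (3.21 to 806; log2 fold change 4.02, SE 0.88, adjusted p = 0.023). *MtKunitz17* had 9 and 16 counts in overexpressing calli and 1 and 1 in wildtype calli, a ratio of 9.82 (2.45 to 85.5; log2 fold change 3.16, SE 0.69, adjusted p = 0.022). DESeq2 did not call *MtKunitz12* (adjusted p = 0.116) or *MtKunitz17* (0.143), the highest values of their alternatives, which began at 0.0128 and 0.0203. *MtKunitz12* was also not called without overexpressing replicate 1 (0.074), overexpressing replicate 2 (0.064) or wildtype replicate 1 (0.0503), nor *MtKunitz17* without overexpressing replicate 2 (0.075), wildtype replicate 1 (0.074) or wildtype replicate 2 (0.054).

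**Figure D2:**
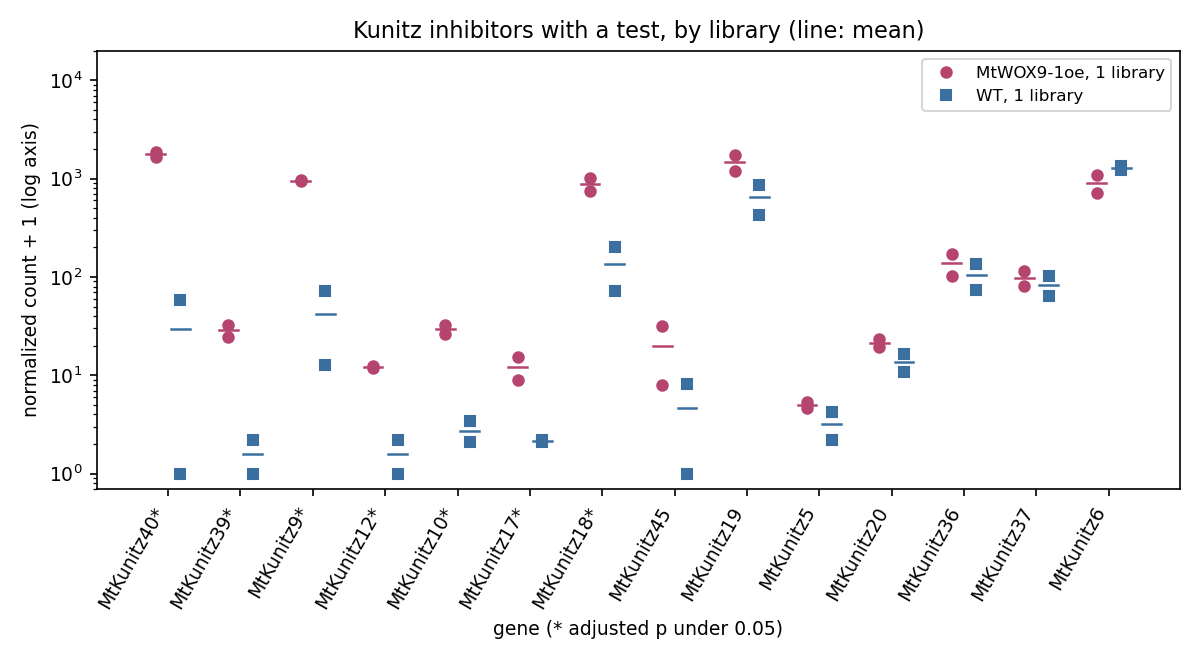
Normalized count plus 1 (y axis, log scale) of the 14 tested Kunitz inhibitors (x axis, ordered by fold change), with red circles for overexpressing and blue squares for wildtype libraries, 1 point for 1 library and a line at the mean. The 7 genes marked with an asterisk have an adjusted p under 0.05, and in *MtKunitz40* the wildtype points lie far apart, at counts of 0 and 48.

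Other abundant Kunitz genes did not pass the test. *MtKunitz19* had 1984 and 1327 counts in overexpressing calli and 395 and 723 counts in wildtype calli, so that both overexpressing libraries were higher. With normalized means of 1474 ± 386 in overexpressing and 648 ± 315 in wildtype calli (SD, n = 2 each), its log2 fold change of 1.19 (SE 0.39) had an adjusted p of 0.065. DESeq2 gave an adjusted p of 0.0095 for it, the lowest of its alternatives, which reached 0.215, and it was also called without wildtype replicate 2 (1.80, adjusted p = 0.010). *MtKunitz6* was the only tested Kunitz gene with a negative fold change. It had 815 and 1213 counts in overexpressing calli and 1135 and 1127 in wildtype calli, with a log2 fold change of -0.51 (SE 0.23, adjusted p = 0.143), and it was called lower only without overexpressing replicate 2 (-0.85, adjusted p = 0.034, the lowest of alternatives up to 0.358). The remaining 5, *MtKunitz5*, *MtKunitz20*, *MtKunitz36*, *MtKunitz37* and *MtKunitz45*, had positive fold changes with adjusted p-values between 0.194 and 0.560.

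Kunitz genes lie in arrays by the order of their gene IDs, and members of an array differed in level and in call. Of the 42 Kunitz genes 26 were on chromosome 6, where 5 of 9 tested genes were higher, beside 7 of 14 over all chromosomes. The share higher was 20.2% among all tested genes and 29.1% among those with a description. Of the higher genes on chromosome 6, *MtKunitz39*, *MtKunitz12* and *MtKunitz17* passed the minimum only through the overexpressing libraries. Arrays were defined here as same-class members at most 10 genes apart. In an array of 6 members within 18 consecutive gene IDs of chromosome 6, *MtKunitz40* and *MtKunitz39* were higher. The same array held *MtKunitz37*, with 91 and 125 counts in overexpressing calli against 58 and 84 in wildtype calli (log2 fold change 0.25, adjusted p = 0.560). It also held *MtKunitz36*, with 115 and 189 counts in overexpressing calli against 68 and 112 in wildtype calli (log2 fold change 0.39, adjusted p = 0.463). Neither of these was called, and the remaining 2 members had 0 and 2 counts in total. A second array on chromosome 6 held 8 members within 14 genes. Its *MtKunitz12*, *MtKunitz17* and *MtKunitz18* were higher, *MtKunitz19* was not called, and *MtKunitz13* to *MtKunitz16* had at most 6 counts each in total. Of the tested genes of other kinds between the members, 1 of 3 was higher in the first array and 0 of 3 were called in the second. On chromosome 3, *MtKunitz9* and *MtKunitz10* lie within an array of 3 members in 4 genes, and both tested members were higher. Whether reads matching several loci were kept is not stated, so counts of near-identical neighbours could have been exchanged between them.

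Bowman-Birk inhibitors, double-headed serine protease inhibitors of legume seeds, had few reads. On chromosome 7, 12 of the 13 formed an array of 13 consecutive gene IDs, and 7 of these had 0 counts in every library. Only *MtBBPI14* and *MtBBPI5* of this array were tested, and the 1 gene of another kind between the members was higher. *MtBBPI14* had 56 and 165 counts in overexpressing calli and 0 and 17 in wildtype calli. The groups did not overlap, but both were uneven, and the log2 fold change of 3.32 (SE 1.10) had an adjusted p of 0.068. It was called without wildtype replicate 2 (adjusted p = 0.019, the lowest of alternatives up to 0.376), where no wildtype count remained. *MtBBPI5* had 4 and 20 counts in overexpressing calli and 0 and 2 in wildtype calli (log2 fold change 3.10, SE 1.34, adjusted p = 0.130). *MtBBPI16*, the member on chromosome 1, had 15 and 11 counts in overexpressing calli and 10 and 14 in wildtype calli, which overlap (log2 fold change -0.24, adjusted p = 0.683).

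**Figure D3:**
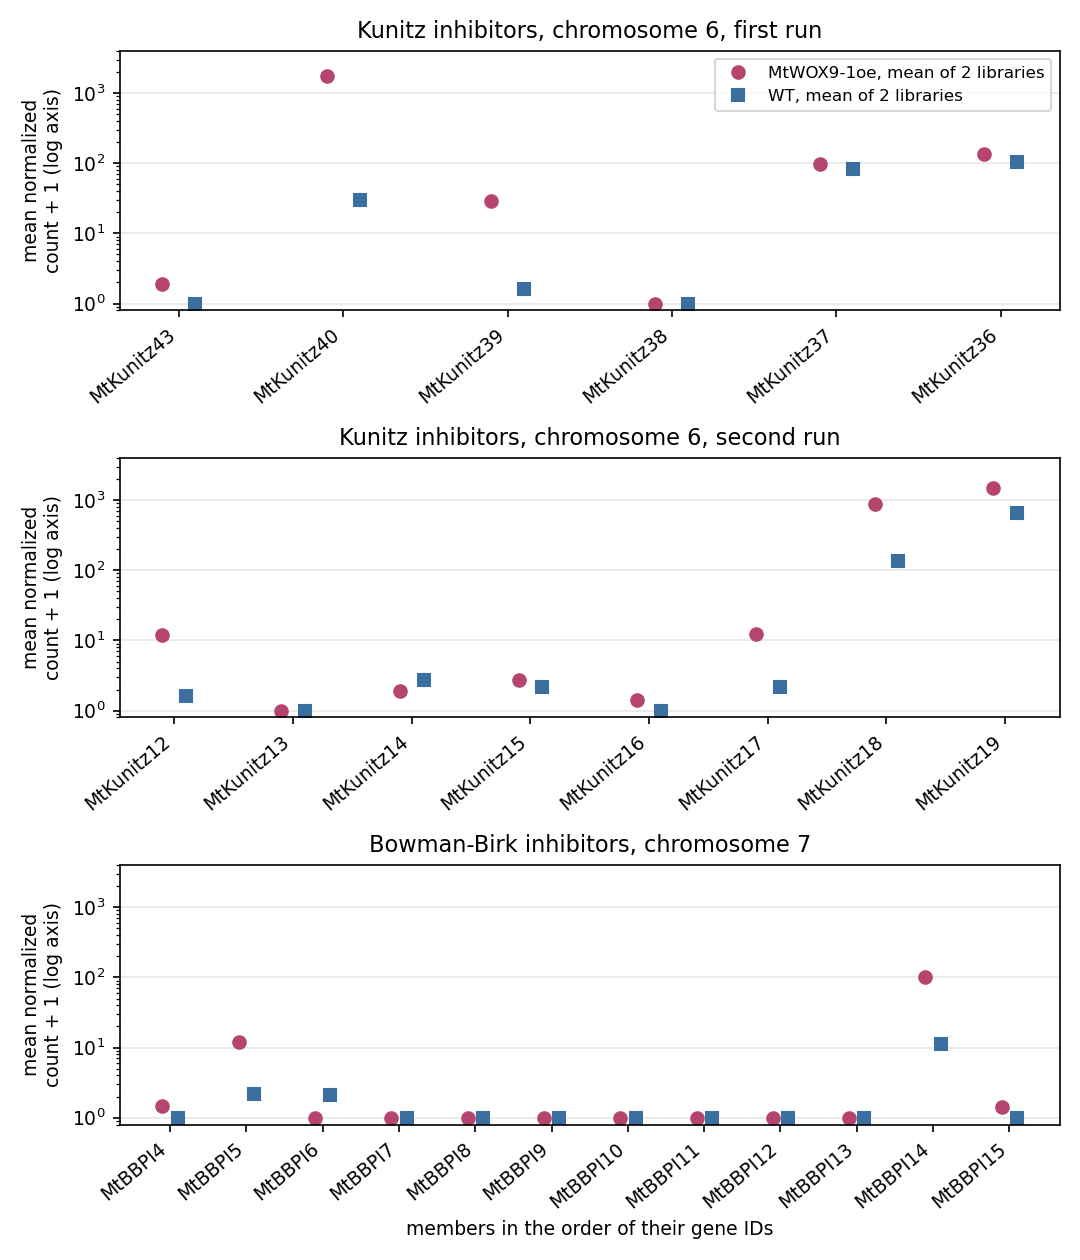
Mean normalized count plus 1 (y axis, log scale; mean of 2 libraries) of the members of 3 arrays, in the order of their gene IDs (x axis), with red circles for overexpressing and blue squares for wildtype calli. High genes and genes without reads stand next to each other: *MtKunitz40* averaged 1769 in overexpressing calli, and 7 of the 12 Bowman-Birk genes had 0 counts throughout.

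Among phytocystatins, inhibitors of papain-like cysteine proteases, the largest change was a fall. *MtPhyCys14* had 82 and 34 counts in overexpressing calli, against 723 and 655 counts in wildtype calli. Every overexpressing library was far below both wildtype libraries. Normalized means were 51.5 ± 29.3 in overexpressing and 783 ± 7.01 in wildtype calli (SD, n = 2 each), which is 15.1-fold lower (log2 fold change -3.92, SE 0.37, adjusted p = 0.0036). The log2 fold change was -4.66 without overexpressing replicate 1 and -3.44 without overexpressing replicate 2.

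*MtPhyCys5* had 636 and 447 counts in overexpressing calli and 1251 and 1248 in wildtype calli. It had the most counts of any phytocystatin in wildtype calli and was 2.95-fold lower in overexpressing calli (log2 fold change -1.56, SE 0.19, adjusted p = 0.0057). *MtPhyCys31* fell less, with 231 and 219 counts in overexpressing calli and 331 and 277 in wildtype calli (log2 fold change -0.78, SE 0.12, adjusted p = 0.0083). These 3 genes kept their calls under every alternative. *MtPhyCys45* had 302 and 308 counts in overexpressing calli against 398 and 286 in wildtype calli, and its log2 fold change of -0.51 (SE 0.15) missed the threshold at an adjusted p of 0.051. It was called with the filterByExpr minimum (0.040) and without wildtype replicate 2 (0.035, the lowest of alternatives up to 0.205).

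Another 2 phytocystatins rose. *MtPhyCys40* had 1454 and 1342 counts in overexpressing calli and 716 and 680 in wildtype calli, a 1.57-fold higher level (log2 fold change 0.65, SE 0.12, adjusted p = 0.013). *MtPhyCys10* had 91 and 80 counts in overexpressing calli and 28 and 33 in wildtype calli (2.19-fold higher, log2 fold change 1.13, SE 0.22, adjusted p = 0.016). Neither gene had overlapping groups, yet both lost the call without overexpressing replicate 1 (adjusted p = 0.053 for *MtPhyCys40* and 0.063 for *MtPhyCys10*) and without wildtype replicate 1 (0.060 for both). *MtPhyCys10* also lost it with DESeq2 at 0.082, the highest value for that gene, and the lowest adjusted p of the alternatives was 6.33e-05 for *MtPhyCys40* and 0.0125 for *MtPhyCys10*. A second gene ID with the symbol *MtPhyCys10*, next in ID order, had 0 counts. In overexpressing calli *MtPhyCys40* thus had the highest phytocystatin counts, whereas in wildtype calli *MtPhyCys5* did. Of the 36 phytocystatin genes 24 had 0 counts in all libraries, among them the 4 of an array on chromosome 5.

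**Figure D4:**
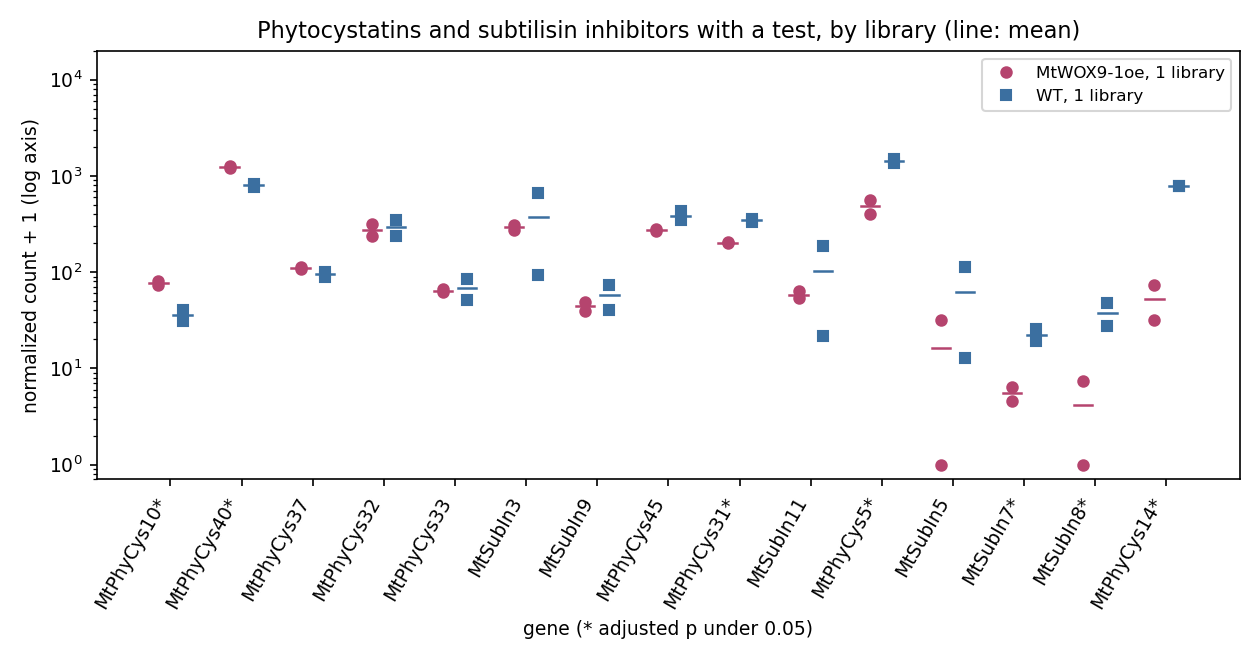
Normalized count plus 1 (y axis, log scale) of the tested phytocystatins and subtilisin inhibitors (x axis, ordered by fold change), with red circles for overexpressing and blue squares for wildtype libraries, 1 point for 1 library and a line at the mean. Asterisks mark an adjusted p under 0.05; *MtPhyCys14* is lowest in fold change (-3.92), and the wildtype points of *MtSubIn3*, *MtSubIn5* and *MtSubIn11* lie far apart.

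Among subtilisin inhibitors, which act on subtilisin-type serine proteases, 2 fell and none rose. *MtSubIn8* had 0 and 7 counts in overexpressing calli and 43 and 22 in wildtype calli (log2 fold change -3.49, SE 0.94, adjusted p = 0.039). *MtSubIn7*, in the same array of 4 members on chromosome 3, had 4 and 6 counts in overexpressing calli and 23 and 15 in wildtype calli (log2 fold change -2.23, SE 0.44, adjusted p = 0.017). Both were lower in each overexpressing library than in each wildtype library. The calls were lost without wildtype replicate 1, at an adjusted p of 0.111 for *MtSubIn8* and 0.063 for *MtSubIn7*, and with DESeq2, at 0.058 for *MtSubIn8* and 0.103 for *MtSubIn7*. They were also lost without overexpressing replicate 1, at 0.053 for *MtSubIn8* and 0.074 for *MtSubIn7*, and *MtSubIn8* lost it with a minimum of 1 count at 0.069. The log2 fold change of *MtSubIn8* was -2.50 without overexpressing replicate 1 and -8.15 without overexpressing replicate 2, where no overexpressing count remained. Over all alternatives the adjusted p began at 0.0218 for *MtSubIn8* and 0.0110 for *MtSubIn7*. The remaining tested gene of this array, *MtSubIn9*, had 55 and 42 counts in overexpressing calli and 68 and 33 in wildtype calli, which overlap. Of 2 tested genes of other kinds between the members of this array, 1 was lower.

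For other subtilisin inhibitors the wildtype library decided the direction. *MtSubIn3* had 309 and 341 counts in overexpressing calli and 85 and 546 in wildtype calli. *MtSubIn11* had 71 and 58 counts in overexpressing calli and 19 and 154 in wildtype calli. In both genes the overexpressing libraries lay between the wildtype libraries. The log2 fold change of *MtSubIn3* was -0.36 (SE 0.83, adjusted p = 0.762), but -1.18 (adjusted p = 0.010) without wildtype replicate 1 and 1.67 (adjusted p = 0.0054) without wildtype replicate 2. That of *MtSubIn11* was -0.82 (SE 0.91, adjusted p = 0.517), but -1.69 (adjusted p = 0.0076) without wildtype replicate 1 and 1.49 (adjusted p = 0.0245) without wildtype replicate 2. *MtSubIn5*, with 0 and 34 counts in overexpressing calli and 11 and 93 in wildtype calli, varied within both groups (adjusted p = 0.331).

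Wide spread between wildtype replicates was more frequent among the members than among genes in general, a difference that was not tested. Of 25 members with at least 20 counts over the wildtype libraries, 7 differed more than 2-fold between the replicates after scaling (28.0%), and all 7 were higher in replicate 2. They were *MtKunitz40*, *MtKunitz9*, *MtKunitz18*, *MtKunitz19*, *MtSubIn3*, *MtSubIn5* and *MtSubIn11*. Over all 19461 genes with as many counts the share was 4.61%, with 622 higher in replicate 2 and 276 higher in replicate 1. In overexpressing calli 5 of 30 members differed more than 2-fold (16.7%), against 3.49% of 20631 genes. The summed embryo regulator level of wildtype replicate 2 was also above that of replicate 1, at 391 against 72.1 normalized counts, and its part in the inhibitor values was not tested.

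**Figure D5:**
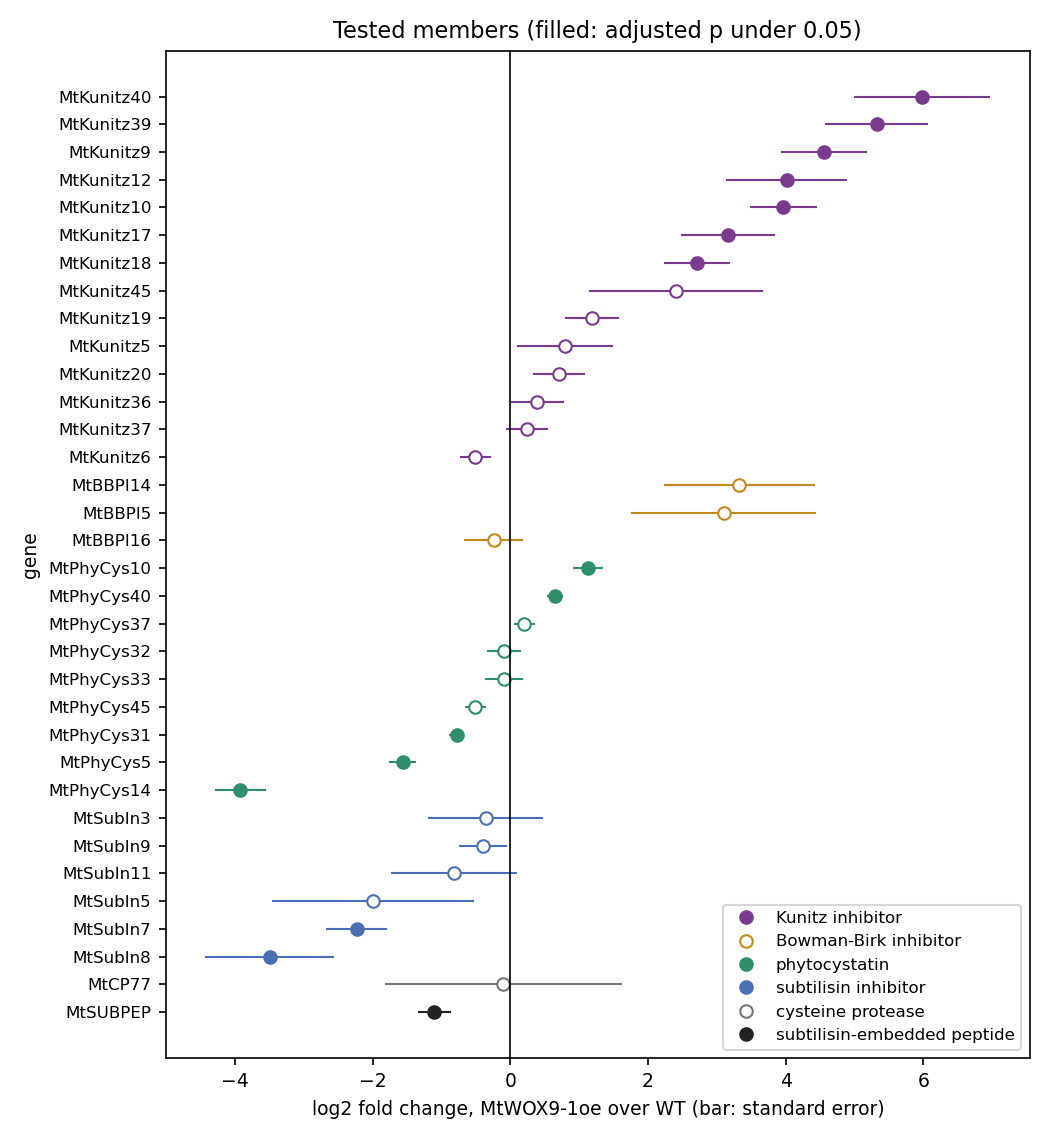
Log2 fold change, overexpressing over wildtype calli (x axis), of the 34 tested members (y axis), with the standard error as a bar and a colour for each class; filled circles have an adjusted p under 0.05. Filled Kunitz inhibitors all lie to the right of 0, filled subtilisin inhibitors to the left, and filled phytocystatins on both sides.

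On the protease side, *MtSUBPEP* had 70 and 105 counts in overexpressing calli and 161 and 135 in wildtype calli. SUBPEP peptides are known from soybean, where a peptide within an extracellular subtilase triggers defence gene expression. Both overexpressing libraries were lower, with normalized means of 78.3 ± 23.6 in overexpressing and 168 ± 7.68 in wildtype calli (SD, n = 2 each) and a log2 fold change of -1.10 (SE 0.23, adjusted p = 0.021). Without wildtype replicate 1 the adjusted p was 0.058, the highest of the alternatives, which began at 0.0155. *MtCP77*, a papain-like cysteine protease of the kind phytocystatins act on, had 0 and 6 counts in overexpressing calli and 0 and 5 in wildtype calli. Its log2 fold change was -0.10 (SE 1.72, adjusted p = 0.969), with few counts and uneven replicates in both groups.

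Other genes of proteolysis with a description were taken from a further keyword list of 12, of which 5 were tested. By edgeR, 2 were higher and 0 lower in overexpressing calli (1 lower at an unadjusted p under 0.05, and 0 by DESeq2). Shares were 20.2% higher and 18.9% lower among all tested genes, and 29.1% and 26.9% among those with a description. *MtCP2*, described as a cys protease and so outside the keywords, had 791 and 667 counts in overexpressing calli and 143 and 147 in wildtype calli. Its normalized means were 650 ± 65.7 in overexpressing and 165 ± 16.2 in wildtype calli (SD, n = 2 each), a 3.93-fold rise without overlap (log2 fold change 1.98, SE 0.15, adjusted p = 0.0027). *MtDNF1*, a signal peptidase complex subunit known for its role in nodule symbiosis, had 166 and 173 counts in overexpressing calli and 105 and 78 in wildtype calli (log2 fold change 0.55, SE 0.15, adjusted p = 0.045). The call of *MtDNF1* was lost with DESeq2 (adjusted p = 0.245), with a minimum of 1 count (0.063) and whichever library was left out (0.069 to 0.176), while its alternatives began at 0.022. *MtCP2* was called under every alternative. Signal peptide peptidase *MtSPP* and the signal peptidase subunits *MtDAS18* and *MtDAS12* had log2 fold changes of -0.39, -0.21 and -0.16 and were not called. Both potato type II proteinase inhibitors, a class outside the keywords, had more normalized counts in each overexpressing library than in either wildtype library but were not called. Of the 24630 tested genes, 9682 were separated in this direction and 8810 in the other. *MtT2SPI2* had 1453 and 2113 counts in overexpressing calli and 525 and 839 in wildtype calli (log2 fold change 1.02, SE 0.34, adjusted p = 0.071). *MtT2SPI1* had 78 and 128 counts in overexpressing calli and 0 and 40 in wildtype calli (log2 fold change 1.98, SE 1.09, adjusted p = 0.210).

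*MtKPI 106*, a Kunitz inhibitor of arbuscular mycorrhizal roots, was the 1 member found by name in the RefSeq gene table of the MtrunA17r5.0-ANR assembly, on chromosome 8 between 21871568 and 21872354. It had 0 counts in all 4 libraries, as did *MtSCP1*, a serine carboxypeptidase described as a marker of arbuscular mycorrhiza.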

How the data were processed

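RNA-seq was analysed for 2 *MtWOX9-1*-overexpressing and 2 wildtype callus libraries. The deposited count table holds raw whole numbers, 1 column for each library, for gene IDs of MtrunA17r5.0-ANR. A further deposited table held a normalized signal per library, which the authors made by multiplying each count by 1 constant per library, together with descriptions, which chose the members, and the authors' log2 fold changes and p-values, which were not used. Trimmomatic, HISAT2, StringTie and DESeq are named in the submitters' processing notes. Versions, strand setting and treatment of multi-mapped reads are not given in the sources used here. All 4 count columns matched sample descriptions, and 0 per-sample columns were left unused.

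Counts were tested with edgeR 4.0.16 in R 4.3.3 (TMM scaling, quasi-likelihood F test, Benjamini-Hochberg adjustment over all tested genes, threshold 0.05, minimum of 10 counts over all libraries), after testing on simulated data. Normalized counts are counts divided by the TMM-scaled library size, relative to the mean such size. Counts are not per length, so levels were not compared between genes except as counts within a class. Between replicates the chi-square per degree of freedom was 7.71 in overexpressing and 6.80 in wildtype calli, above sampling noise. An exact permutation test of 2 against 2 libraries cannot go below p = 0.333 and was not used. Alternatives were DESeq2 1.42.0, its size factors, library size only, a minimum of 1 count, filterByExpr, a replicate block, a threshold of 0.01 and each library left out.

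Genes were named by rule: in inhibitors and proteases apart, the 8 largest rises and falls among calls, the 4 with the highest mean normalized count, and members with at most 3 counts in each library of a group and at least 20 in both of the other. Further members with uneven replicates, array neighbours and classes without calls were named after their values were seen. Members and lists were chosen with earlier results of these data known. The marker and keyword lists hold genes with a deposited description only, and a proteasome keyword found 1 gene, with 0 counts. No sequences are shown.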

Additional observations from a re-analysis of the deposited data

How the results depend on the processing

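Over all genes, scaling by library size only called 6024 higher and 3928 lower, and calls numbered 3323 higher and 3088 lower with DESeq2, 1907 and 2023 at an adjusted p under 0.01, and between 2696 and 4465 higher and 2935 and 3858 lower when 1 library was left out, against 4985 and 4660. At an adjusted p under 0.01, 3 inhibitors were higher (3 of them Kunitz, 0 phytocystatins), 3 lower, 0 proteases lower and 1 other protease gene higher. DESeq2 called 3 inhibitors lower, 1 phytocystatin higher and 1 other protease gene higher. A minimum of 1 count called 1 other protease gene higher, and filterByExpr called 1 lower. Leaving out 1 library gave 5 to 12 inhibitors higher and 3 to 6 lower, 5 to 7 Kunitz inhibitors higher and 0 to 1 lower, 0 to 2 phytocystatins higher, 0 to 1 proteases lower and 1 other protease gene higher. The median log2 fold change of the tested proteases ranged between -1.45 (*MtSUBPEP* alone, without overexpressing replicate 2) and 0.031 (both genes, without overexpressing replicate 1). The summed inhibitor ratio ranged between 1.18 and 1.54, and the summed ratio of the 2 proteases between 0.361 and 0.588. *MtSUBPEP* made up most of this protease sum, at 78.3 of 81.1 normalized counts in overexpressing and 168 of 171 in wildtype calli. The 12 other proteolysis genes, of which 6 had 0 counts in all libraries, had a summed ratio of 1.32. This ratio rests on *MtCP2*, at 650 of 1555 normalized counts in overexpressing and 165 of 1178 in wildtype calli. With 1 library left out *MtSubIn3* ranged between -1.18 and 1.67 and *MtSubIn11* between -1.69 and 1.49, both positive without wildtype replicate 2. Of 15 called members 7 kept their call at 0.05 under every alternative. The labels do not say whether same-numbered libraries shared more than a number. The correlation of their deviations was -0.04 over 18337 genes, which cannot exclude a shared effect on fewer genes. With the replicate block 9 inhibitors were higher, 3 lower, and 1 other protease gene higher. Under the block *MtBBPI14* was called (adjusted p = 0.040), while *MtKunitz12* (0.062), *MtSubIn7* (0.057), *MtSubIn8* (0.098) and *MtDNF1* (0.089) were not. The causes of these shifts were not tested, beyond the smaller number of libraries or stricter threshold. Counting error limits members with few counts.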
